A study of Sus scrofa with 4 samples.

Results

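FLT1, KDR, TEK, ROBO4, VEGFC and ESAM are 6 genes of vessel growth and vessel sealing, made up of 4 receptors, 1 ligand and 1 junction protein, that endothelial cells are known for. They were taken by name, summing every feature that carried the name in each matrix, and they are 6 of the 30282 gene identifiers measured. Their levels were compared between endothelial cells and the other cell classes of the porcine pancreas, between endothelial types, and between porcine pancreatic ductal organoids (PPDO) and the ductal cells of the organ. The series held 4 single-cell libraries, 2 of PPDO and 2 of primary pancreas, made with droplet capture of RNA 3′ ends.

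PPDO are epithelial cultures grown in extracellular matrix from ducts picked out of digested pancreas. The study describes the 2 lines as late postnatal and adult, but the sample names in its methods give postnatal days within its late postnatal range. The lines were sampled after most of the culture had left its early cystic form, at different passages. The primary libraries came from 2 German landrace pigs close to reproductive maturity, 1 wild-type and 1 carrying an INS-eGFP reporter that marks beta cells. The wild-type preparation, primary pancreas 1, was enriched for hand-picked ducts and sorted for live cells, while primary pancreas 2 pooled lectin-labelled duct cells, reporter-positive cells and whole suspension by sorting. Library, animal, genotype and preparation therefore cannot be told apart, and the number of cells in a class does not describe the organ. No treatment was applied to any of the 4 libraries.

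VEGF ligands bind receptor tyrosine kinases on endothelial cells: KDR (VEGFR2) carries most of the growth signal, and FLT1 (VEGFR1) binds VEGFA tightly with weak kinase output and so acts largely as a trap. TEK (TIE2) is the receptor of the angiopoietins, ROBO4 is a vascular member of the roundabout family with a role in keeping vessels tight, and ESAM is an adhesion molecule of endothelial tight junctions. VEGFC is the ligand of the set and is best known for signalling through FLT4 (VEGFR3) to lymphatic vessels.

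After filtering, 5671 and 4261 primary cells and 8885 and 7337 PPDO cells remained. The primary cells were grouped without using the 6 genes or their partner lists. The libraries shared 10 to 23 cell barcodes by pair. Endothelial cells were split into a BTNL9/DYSF type with 709 and 202 cells in primary pancreas 1 and 2, a SELP/IL33 type with 216 and 48 cells, and an arterial-like type with 148 and 14 cells. All 14 endothelial markers were detected, with PECAM1 between 1920 and 2367 CPM and CDH5 between 235 and 345 CPM over the 4 clusters. A UMI, or unique molecular identifier, is 1 counted RNA molecule, and CPM are a gene's counts per 1e6 UMIs of a class, so a lower level can mean fewer expressing cells or fewer molecules in each. The BTNL9/DYSF type came from different clusters in each library, since 709 of its cells in primary pancreas 1 were cluster 4 and 199 of those in primary pancreas 2 were cluster 16. The SELP/IL33 type carried SELP at 232 CPM and IL33 at 691 CPM, but its venous marker ACKR1 was at 19.8 CPM, and the lymphatic markers PROX1 at 40.8 CPM, MMRN1 at 46.0 CPM and CCL21 at 260 CPM were also present. Its name is thus kept to its genes.

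All 6 genes were higher in all endothelial cells together than in all other named primary cells together. Single classes could overlap for VEGFC, where the BTNL9/DYSF type was at 70.6 and 105 CPM. Fibroblast-like cells were at 34.9 and 116 CPM, the latter from 7 cells. FLT1 (ENSSSCG00000009320; Sscrofa11.1 chr11:5620698-5797095) was at 1264 and 1492 CPM in all endothelial cells of primary pancreas 1 and 2, against 9.78 and 1.98 CPM in all other named cells, a 129-fold and a 753-fold excess. KDR (ENSSSCG00000008844; chr8:41809116-41856379) was at 285 and 342 CPM against 10.0 and 5.74 CPM. Outside the endothelium these VEGF receptors had similar levels in primary pancreas 1, while KDR was the higher in primary pancreas 2. The KDR excess was 28.4-fold and 59.6-fold, with a lower endothelial level than that of FLT1 in both libraries.

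TEK (ENSSSCG00000005122; chr1:195938177-196052294) was at 764 and 1057 CPM in endothelial cells and at 8.31 and 1.07 CPM elsewhere. ROBO4 (ENSSSCG00000015203; chr9:52083757-52097784) was at 195 and 242 CPM against 1.08 and 0.0705 CPM. In the other named cells of primary pancreas 2 ROBO4, with 8 UMIs, was thus near the detection limit, whereas TEK had 121 UMIs. VEGFC (ENSSSCG00000015770; chr15:39037764-39136234) was at 172 and 213 CPM against 5.34 and 2.40 CPM. ESAM (ENSSSCG00000015200; chr9:51983019-51992415) was at 213 and 305 CPM against 6.69 and 1.17 CPM. ESAM and ROBO4 lie on the same chromosome, 91341 bases apart, and ROBO3 ends 1992 bases before ROBO4 begins in the RefSeq annotation.

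**Figure D1:**
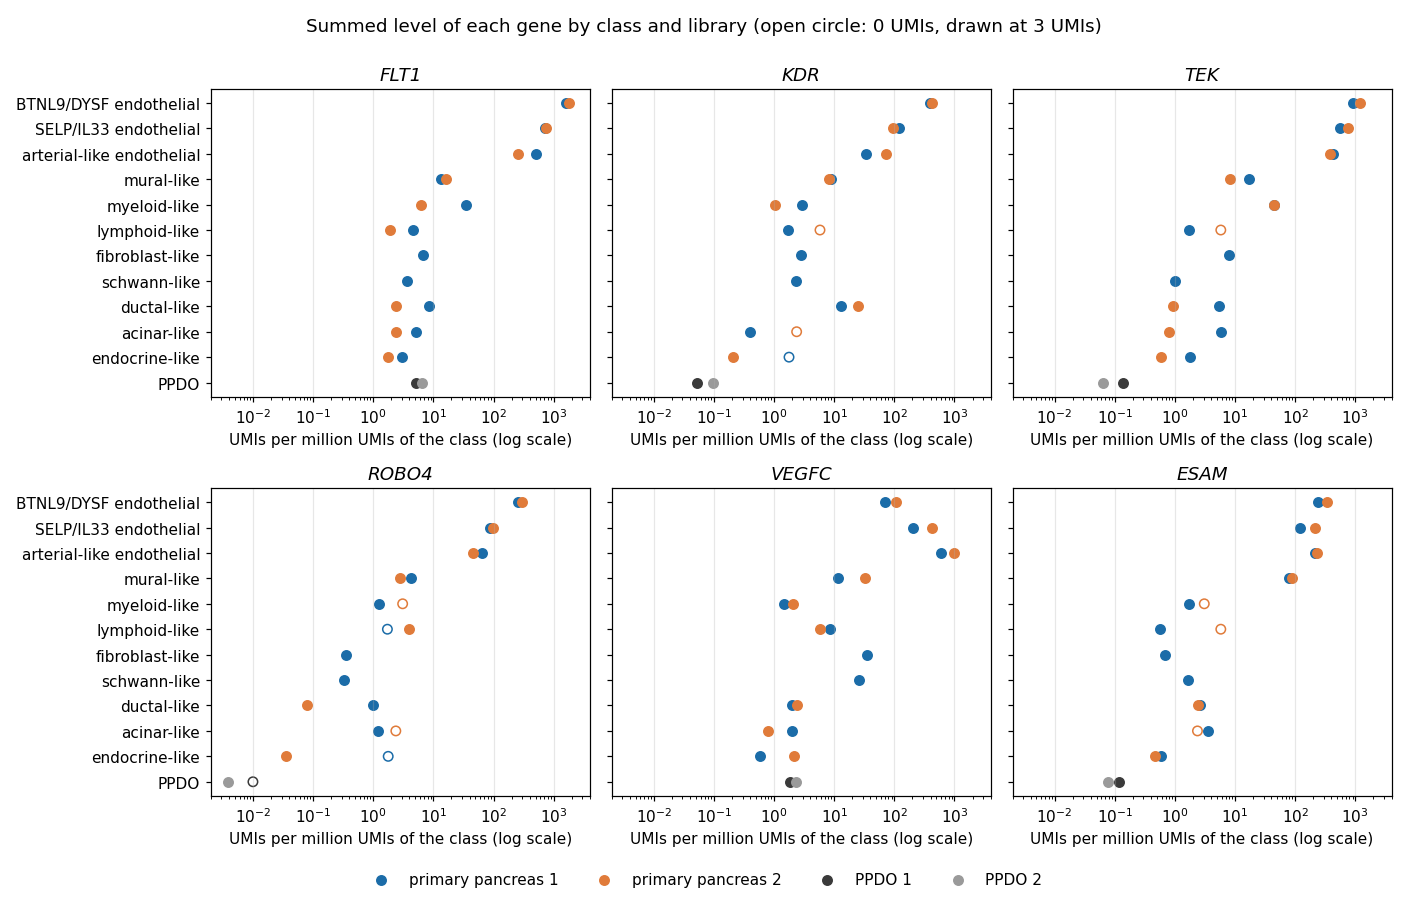
CPM of the 6 genes (log axis) in each cell class with at least 10 cells, 1 point per library, open circles marking sums with 0 UMIs, drawn at the level that 3 UMIs would give. Endothelial types lie above the other classes for FLT1, KDR, TEK and ROBO4, while mural-like cells follow closely for ESAM and the arterial-like type leads for VEGFC.

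The comparison was tested with edgeR's quasi-likelihood test on UMIs summed per library and class, over 8 classes with at least 20 cells in both libraries. Arterial-like, fibroblast-like and schwann-like cells had fewer in primary pancreas 2 and were left out. The contrast set the mean of the BTNL9/DYSF and SELP/IL33 types against the mean of the 6 other classes on the log2 scale. Of 15456 genes tested, 20% were called higher at an adjusted p under 0.05, and all 6 genes were among them. ROBO4 passed the filter on low counts only through the endothelial types, where it is high, so its call adds nothing to those of the others. The log2 differences were 7.12 ± 0.39 (SE) for FLT1, 6.52 ± 0.28 for KDR, 7.15 ± 0.41 for TEK, 7.56 ± 0.46 for ROBO4, 5.22 ± 0.25 for VEGFC and 6.20 ± 0.31 for ESAM. Without primary pancreas 1 the differences were 9.52 for KDR, 9.66 for TEK, 11.05 for ROBO4, 11.18 for ESAM and 7.91 for FLT1, and without primary pancreas 2 they were 7.73, 6.53, 9.54, 5.72 and 6.82. Classes with 0 UMIs of a gene make such fitted values depend on the prior count. The adjusted p-values in edgeR over both libraries lay between 1.52e-09 for KDR and 1.54e-08 for ROBO4, and the median difference of all genes was 0.00. Each value rests on 2 libraries. The fit took the class sums of 1 animal as independent, although they deviated together, so these p-values do not measure the spread between animals. With 1 endothelial sum and 1 sum of all other cells per library, 5 of the 6 genes were called. ROBO4 was not, at an edgeR adjusted p of 0.0529.

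The share of cells with a UMI of each gene was compared after thinning every cell to 2000 UMIs, because classes differed in depth. In the BTNL9/DYSF type 90.1% and 91.6% of cells held an FLT1 UMI, 76.4% and 83.2% a TEK UMI and 48.1% and 50.5% a KDR UMI. At full depth these shares were 98.7% and 100% for FLT1, 98.4% and 99.0% for TEK, and 85.3% and 90.1% for KDR. In lymphoid-like cells, which should lack these receptors and had median depths of 5744 and 5502 UMIs beside 8995 and 9761, the full-depth shares were 3.17% and 1.37% for FLT1, 1.19% and 0% for TEK and 1.19% and 0% for KDR. UMIs of the receptors were thus found in most BTNL9/DYSF cells and in few lymphoid-like cells. ROBO4 was seen in 37.5% and 40.1% of thinned cells and ESAM in 40.0% and 48.5%, whereas VEGFC was seen in 9.5% and 16.8%. At least 1 of the 6 genes was present in 99.3% and 100% of thinned BTNL9/DYSF cells, with a mean of 3.02 and 3.31 genes per cell, against 1.17% and 1.53% of thinned PPDO cells.

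**Figure D2:**
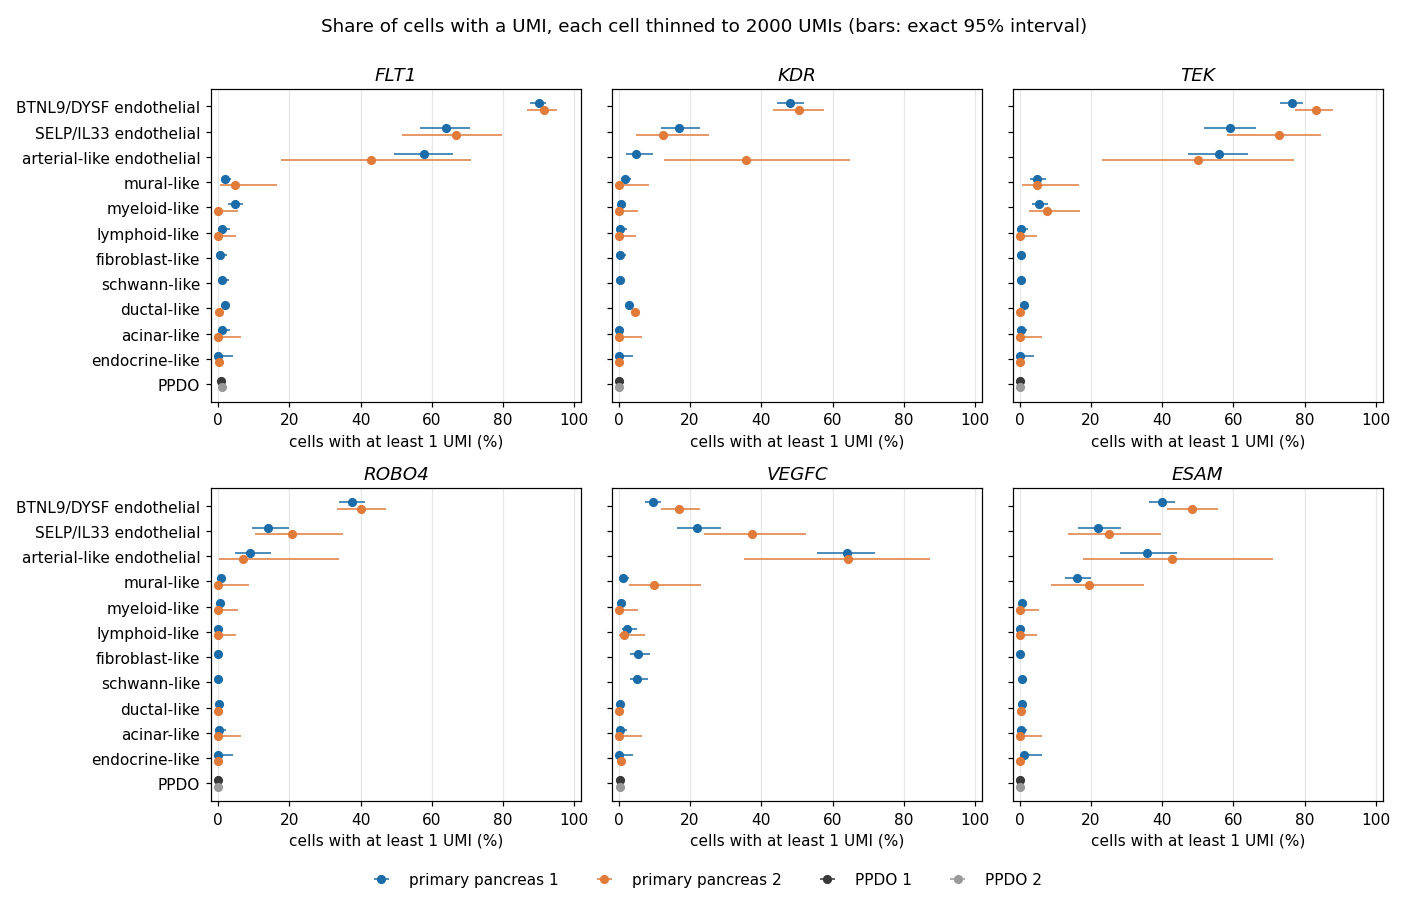
Share of cells (percent) with at least 1 UMI of each gene after thinning to 2000 UMIs a cell, 1 point per library with its exact 95% Clopper-Pearson interval, which covers counting error only. Endothelial types stand far above acinar-like, endocrine-like and PPDO cells, and VEGFC is most often found in arterial-like cells, at 64.1% and 64.3%.

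Between endothelial types KDR was higher in the BTNL9/DYSF type, a call that did not hold in every fit, and VEGFC had lower values there without passing the test. KDR was at 391 and 425 CPM in the BTNL9/DYSF type of primary pancreas 1 and 2 and at 118 and 94.3 CPM in the SELP/IL33 type, a 3.32-fold and a 4.51-fold difference. VEGFC was at 70.6 and 105 CPM in the BTNL9/DYSF type and at 202 and 421 CPM in the SELP/IL33 type. BTNL9 marks capillaries in several tissues, whereas SELP, the P-selectin that binds leukocytes, is typical of venules.

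In the edgeR test between these types 1.24% of the 15456 genes were called, 0.505% higher and 0.731% lower in the BTNL9/DYSF type. KDR was the 1 of 6 genes called, with a log2 difference of 2.04 ± 0.44 (SE) and an adjusted p of 0.0392. With the library as a block, since both types came from the same 2 animals, KDR had an adjusted p of 0.0051 in edgeR and VEGFC became a call at 0.0131. Without the block VEGFC was −1.66 ± 0.43 lower on the log2 scale, with an edgeR adjusted p of 0.0882. The KDR call did not hold without primary pancreas 1 (adjusted p = 0.188 in edgeR) or without primary pancreas 2 (0.142), fits with 0 genes called (2410 and 3336 at an unadjusted p under 0.05), nor with cell grouping on all variable genes (0.0543) or at a finer resolution (0.0799), although the log2 difference stayed between 1.84 and 2.25.

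The other 4 genes had higher values in the BTNL9/DYSF type in both libraries and did not pass the test. FLT1 was at 1595 and 1774 CPM against 725 and 741 CPM in the SELP/IL33 type (edgeR adjusted p = 0.615). ROBO4 was at 257 and 293 CPM against 87.5 and 99.6 CPM (adjusted p = 0.404 in edgeR), and was called only when genes with low counts were kept (0.0161). For all 4 genes the library values of the types lay apart, but how many of all genes do so was not counted. The log2 differences were 1.33 ± 0.67 (SE) for FLT1 and 1.69 ± 0.67 for ROBO4, with the spread estimated over all class sums as a biological coefficient of variation of 0.353 with 8 residual degrees of freedom. TEK was at 899 and 1180 CPM against 559 and 762 CPM, a log2 difference of 0.80 ± 0.68 (edgeR adjusted p = 0.917). ESAM was at 240 and 334 CPM against 122 and 211 CPM, a log2 difference of 0.94 ± 0.48 (0.628 in edgeR).

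**Figure D3:**
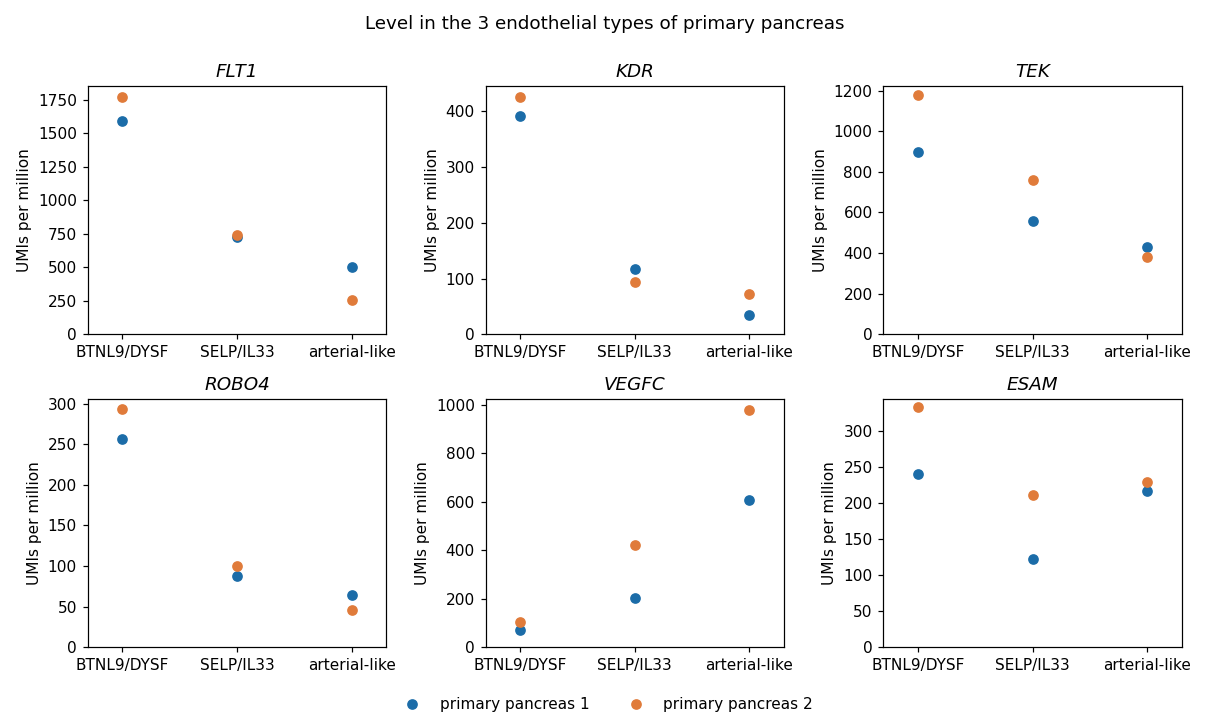
CPM of the 6 genes in the 3 endothelial types, 1 point per library, each panel with its own axis starting at 0. FLT1, KDR and ROBO4 fall from the BTNL9/DYSF type over the SELP/IL33 type to arterial-like cells, while VEGFC runs the other way, from 70.6 and 105 CPM to 608 and 979 CPM.

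Arterial-like cells held the highest VEGFC level of any class, at 608 CPM from 1007 UMIs in primary pancreas 1 and 979 CPM from 149 UMIs in primary pancreas 2. That was 8.61-fold and 9.31-fold above the BTNL9/DYSF type. The same cells had the lowest FLT1 of the endothelial types, at 505 and 256 CPM, and the lowest KDR, at 34.4 and 72.2 CPM. Arterial endothelium was not tested, because primary pancreas 2 held 14 such cells, and these values are descriptions. TEK at 428 and 381 CPM and ROBO4 at 64.0 and 46.0 CPM were likewise lowest there, whereas ESAM at 217 and 230 CPM lay within the range spanned by the other types.

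Cells of the SELP/IL33 type were also divided by lymphatic markers. In primary pancreas 1, 37 of its 216 cells held a UMI of PROX1, LYVE1, MMRN1 or RELN, and in these FLT4, the receptor of VEGFC on lymphatic vessels, was at 80.1 CPM against 8.83 CPM in the other 179 cells. FLT1 was lower in the marked cells, at 402 against 801 CPM, as was ROBO4 at 42.1 against 98.1 CPM. KDR was at 147 against 111 CPM, TEK at 497 against 574 CPM and VEGFC at 177 against 208 CPM. Primary pancreas 2 had 7 marked cells, holding 5 PROX1, 4 MMRN1, 3 LYVE1 and 0 RELN UMIs. FLT1 was at 224 against 878 CPM there and ROBO4 at 58.1 against 111 CPM. KDR and VEGFC lay the other way round there, at 66.4 against 101.8 CPM and 432 against 418 CPM, and FLT4 was at 0 against 11.06 CPM. TEK was at 432 against 850 CPM there, and ESAM was lower in marked cells of both libraries, at 110 against 126 CPM and 124 against 235 CPM. FLT1, TEK, ROBO4 and ESAM thus had lower values in marked cells of both libraries, whereas higher FLT4 was seen in 1. SELP, PLVAP, ACKR1 and VCAM1 were lower in both libraries too, while IL33, NRP2 and ANGPT2 were lower in primary pancreas 2 only. How many of all genes were lower in both was not counted. The marked cells of primary pancreas 2 held 7 ROBO4 and 15 ESAM UMIs, and those of primary pancreas 1 held 20 and 52. The ROBO4 and ESAM differences are therefore imprecise. For FLT1 and TEK the 7 marked cells of primary pancreas 2 held 27 and 52 UMIs. Cells were divided here by whether a UMI of these markers was seen, after the values were known, and no test was made. Depth was not matched, and a deeper cell is more likely to hold such a UMI.

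Outside the endothelium the genes differed in where they were found. KDR was found in ductal-like cells, the epithelium that lines the pancreatic ducts, at 13.1 CPM from 568 UMIs and 24.8 CPM from 630 UMIs. Acinar-like cells were at 0.397 and 0 CPM and endocrine-like cells at 0 and 0.212 CPM. KDR UMIs were present in 16.4% and 27.4% of ductal-like cells at full depth, against 0.4% and 0% of acinar-like and 0% and 0.8% of endocrine-like cells, whose median depth ran from 7329 to 39457 UMIs beside 17895 and 20558 UMIs in ductal-like cells. After thinning the shares were 2.8% and 4.5% of ductal-like cells, with exact intervals from 2.11% to 3.55% and from 3.36% to 5.80%, and 0.0454% of endocrine-like cells in primary pancreas 2.

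The signal was present in every ductal-like cluster. KDR was at 11.3 CPM in cluster 1, 12.97 CPM in cluster 5 and 29.3 CPM in cluster 8 of primary pancreas 1. It was at 24.4 CPM in cluster 0, 31.2 CPM in cluster 23 and 43.3 CPM in cluster 8 of primary pancreas 2. The level was thus not limited to 1 cluster, although cluster 0, the largest, held 590 of the 630 KDR UMIs of primary pancreas 2. In ductal-like cells of primary pancreas 2, CDH5, a cadherin largely restricted to endothelium, had 6 UMIs and the 14 endothelial markers summed to 53.9 CPM. KDR UMIs there came to 46.1% of the endothelial marker UMIs, against 2.33% in endothelial cells of the same library. In primary pancreas 1 the figures were 10.7% and 2.40%, with 69 CDH5 UMIs and markers at 122 CPM.

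Most FLT1, TEK and ROBO4 UMIs of ductal-like cells in primary pancreas 1 came from a single cluster. Cluster 8 held 67.7% of the FLT1 UMIs, 60.3% of the TEK UMIs and 79.1% of the ROBO4 UMIs, and 15.8% of the KDR UMIs. The endothelial markers summed to 553 CPM in that cluster and to 106 CPM and 56.7 CPM in clusters 1 and 5. It also held 37.9% of the VEGFC and 21.7% of the ESAM UMIs. Among ductal-like clusters of that library KDR, too, was highest in cluster 8, and the part of endothelial RNA in these values was not tested.

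ESAM was found in mural-like cells, the pericytes and smooth muscle cells that wrap vessels, at 78.1 CPM from 281 UMIs and 87.6 CPM from 32 UMIs. That was 3.08-fold and 3.81-fold below the BTNL9/DYSF type, and every other named class outside the endothelium was at or under 3.57 CPM. Mural-like cells held CDH5 at 2 and 0 UMIs, and all 14 endothelial markers summed to 97.0 and 90.4 CPM. After thinning, 16.2% and 19.5% of mural-like cells held an ESAM UMI, and none of the 249 and 73 thinned lymphoid-like cells did, which allows a share of up to 1.20% and 4.11% of cells with a UMI at that depth. At full depth 1 of 252 and 0 of 73 lymphoid-like cells held one. ESAM UMIs were 80.5% and 97.0% of the endothelial marker UMIs in mural-like cells, against 1.79% and 2.07% in endothelial cells. The part of endothelial RNA in the ESAM level of mural-like cells was not tested beyond these values.

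TEK was found in myeloid-like cells at 44.9 CPM from 183 UMIs and 44.2 CPM from 43 UMIs, next to 17.0 and 8.21 CPM in mural-like cells. The level was higher in cluster 15, marked by CD163, C1QA, MRC1 and VSIG4, genes of resident macrophages, at 65.0 and 76.6 CPM, the latter from 14 cells. It was 12.2 and 34.6 CPM in cluster 12, marked by AIF1 and MARCO. TEK-expressing monocytes and macrophages are known from tumours. The endothelial markers summed to 412 and 691 CPM in myeloid-like cells, of which PECAM1, which myeloid cells also make, was at 103 and 158 CPM, and CDH5 was at 10.8 and 7.19 CPM. TEK was 10.9% and 6.40% of the endothelial marker UMIs there and 6.42% and 7.19% in endothelial cells, and the part of endothelial RNA in this value was not tested.

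VEGFC was found in fibroblast-like cells at 34.9 CPM from 100 UMIs and in schwann-like cells at 26.3 CPM from 80 UMIs, both in primary pancreas 1, since primary pancreas 2 held 7 and 1 such cells. Mural-like cells were at 11.7 and 32.9 CPM. FLT1 outside the endothelium was highest in myeloid-like cells of primary pancreas 1 at 34.3 CPM, but was 6.17 CPM in primary pancreas 2, and the ranges of myeloid-like and mural-like cells (13.3 and 16.4 CPM) overlapped. In the order of levels the ranges of KDR in ductal-like, TEK in myeloid-like and ESAM in mural-like cells lay apart from those of the classes above and below them. The ranges of KDR, TEK and VEGFC in mural-like and VEGFC in lymphoid-like cells did so too. In primary pancreas 2 these last values rested on 3, 3, 12 and 3 UMIs, so their order is imprecise. How many of all genes lie apart by this rule was not counted. Most of the classes further down overlapped with their neighbours.

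PPDO held little of 4 of the 6 genes. KDR was at 0.05 CPM (16 UMIs) and 0.10 CPM (25 UMIs) in PPDO 1 and 2, against 13.1 and 24.8 CPM in ductal-like cells. TEK was at 0.14 and 0.06 CPM against 5.34 and 0.946 CPM, and ESAM was at 0.12 and 0.08 CPM against 2.65 and 2.41 CPM. The organoids were thus below the ductal-like cells of both animals for all 3 genes. By edgeR 20.9% of all genes tested were called lower in PPDO, and the share lying below both animals was not counted. In ductal-like cells ESAM came to 2.17% and 4.46% of the endothelial marker UMIs, against 1.79% and 2.07% in endothelial cells. TEK came to 4.37% and 1.76%, against 6.42% and 7.19%. The part of endothelial RNA in these ductal-like levels was not tested. ROBO4 had 0 and 1 UMIs in PPDO 1 and 2, against 43 and 2 in ductal-like cells. Over summed UMIs the KDR level was 239-fold lower in PPDO, with a counting interval from 175 to 335. Of the 45 ROBO4 UMIs in ductal-like cells, 34 came from cluster 8 of primary pancreas 1, and no fold is given for this gene.

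FLT1 was detected in PPDO at 5.08 CPM (1530 UMIs) and 6.55 CPM (1719 UMIs), within the 8.57 and 2.37 CPM of ductal-like cells. VEGFC was at 1.82 and 2.29 CPM, next to 2.00 and 2.41 CPM. At full depth 12.3% and 15.1% of PPDO cells held an FLT1 UMI and 5.1% and 6.4% a VEGFC UMI, and after thinning the FLT1 shares were 0.8% and 1.1%. These genes were therefore seen in few organoid cells once depth was matched, and the PPDO libraries were the deepest of the series at 366263520 and 316018482 UMIs.

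The edgeR test of PPDO against ductal-like cells called 43.6% of 23559 genes, with 20.9% of the genes tested lower in PPDO, and 4 of the 6 genes were among them. KDR was −7.49 ± 0.51 (SE) on the log2 scale with an adjusted p of 0.00117 in edgeR, and ESAM was −4.26 ± 0.41 with 0.00251. TEK was −4.60 ± 1.07 with an edgeR adjusted p of 0.0263, and ROBO4 had an adjusted p of 0.0231. ROBO4 passed the filter on low counts only through the ductal-like cells, where it is high, so its call adds nothing. KDR and TEK also needed those sums to pass it, whereas ESAM did not, so the KDR and TEK calls carry the same limit. With no such filter 4 of the 6 genes were called. KDR and ESAM were called in each fit that left out 1 library, whereas TEK lost its call without PPDO 1 (edgeR adjusted p = 0.0927) or without PPDO 2 (0.125), at log2 differences of −5.18 and −4.20, as did ROBO4 (0.116 and 0.0919). Without primary pancreas 1 TEK was −2.69 and was called. KDR was thus low in both organoid lines.

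FLT1 differed by 0.48 ± 0.69 (edgeR adjusted p = 0.611) and VEGFC by 0.37 ± 0.30 (0.362) on the log2 scale after TMM scaling, with factors of 0.875 and 0.830 for PPDO and 1.08 and 1.28 for ductal-like sums. Unscaled, the library means were 5.82 CPM in PPDO against 5.47 CPM in ductal-like cells for FLT1 and 2.06 against 2.20 CPM for VEGFC. The FLT1 value depended on which ductal-like cells it was set against. It was −0.23 without primary pancreas 2 and 1.84 without primary pancreas 1, where it was called higher in PPDO (edgeR adjusted p = 0.0177), and 1.55 without the cells of cluster 8 (0.0197). Without cluster 8 ROBO4 was too low to be tested. FLT1 in PPDO was highest in cluster 8 of the organoids, with the leading genes SPP1, WFDC2, MMP7 and KRT4, at 17.5 and 16.8 CPM in 246 and 160 cells. The same organoid cluster held 50.0% and 72.0% of all KDR UMIs in PPDO, at 0.90 and 3.52 CPM.

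Where along the gene the molecules lay differed between cell types. The annotation adds to many genes a separate feature of 10 kb past the gene's end, and 5 of the 6 genes have one, ESAM being the exception. In endothelial cells of primary pancreas 1 and 2 the extension held 0.3% and 0.2% of FLT1 UMIs, against 16.9% and 68.3% in ductal-like cells and 39.0% and 20.8% in PPDO. For VEGFC it held 8.2% and 8.9% in endothelial cells, 58.6% and 96.7% in ductal-like cells, 88.5% in endocrine-like cells of primary pancreas 2, and 58.9% and 47.2% in PPDO. For KDR it held 0.6% and 0.7% in endothelial and 1.2% and 0.3% in ductal-like cells, and 18.8% and 8.0% of the 16 and 25 UMIs in PPDO. Part of the low FLT1 and VEGFC counts of epithelial cells was thus counted past the gene's end, and whether these molecules belong to the gene was not tested.

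**Figure D4:**
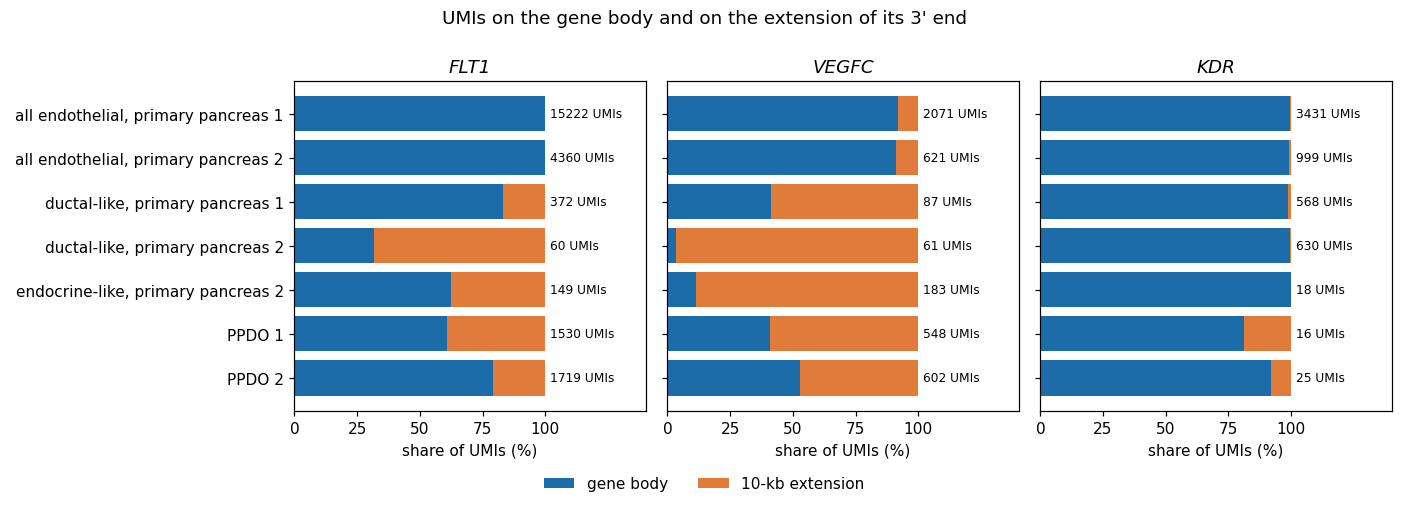
Percent of each gene's UMIs counted in the 10 kb extension feature and in the gene body, by cell class and library, with the number of UMIs at the right. For FLT1 and VEGFC the extension takes a far larger share in ductal-like cells and PPDO than in endothelial cells.

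The partner genes of the 6 were followed in 8 lists with 49 genes. Against the 20% of all genes called higher in endothelial cells, receptors and co-receptors of VEGF were higher in endothelial cells in 3 of 3 cases by edgeR: FLT4 by 6.97 on the log2 scale, NRP1 by 4.07 and NRP2 by 3.53. Of 5 angiopoietin and TIE genes 4 were higher, led by the phosphatase PTPRB at 6.88 and the orphan receptor TIE1 at 5.34, with a list median of 2.58 where all genes had 0.00. The 4 included ANGPT1 and ANGPT2, which were highest in mural-like cells, because the contrast averages over the other classes. Junction partners of ESAM were higher in 6 of 6 cases, with JAM2 at 6.86 and JAM3 at 4.81. Tip cell and VEGF response genes were higher in 4 of 7, with APLNR, the apelin receptor, at 8.78, its ligand APLN at 6.90 and DLL4 at 5.34. The Notch ligand DLL4 was at 163 and 197 CPM in arterial-like cells and at 113 and 122 CPM in the BTNL9/DYSF type.

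Among the signal relay genes 3 of 4 were higher, with NOS3, the endothelial nitric oxide synthase, at 8.48. Transcription factors of endothelium were higher in 13 of 13 cases, with SOX7 at 8.41, TAL1 at 8.03, SOX17 at 7.49 and LMO2 at 7.12. SLIT and ROBO genes were split, since 2 of 7 were higher and 4 lower, where 20% and 11.8% of all genes were called higher and lower. ROBO3, the neighbour of ROBO4, was higher by 6.82, at 49.7 and 52.8 CPM in the BTNL9/DYSF type, against 10.5 and 12.7 CPM in the SELP/IL33 type. Body and extension features were not kept apart for ROBO3, and whether some of its UMIs lie in the ROBO4 region was not tested. ROBO1 was lower by −2.08 and ROBO2 by −2.53, and the ligands SLIT2 and SLIT3 by −2.29 and −2.66. Between the BTNL9/DYSF and SELP/IL33 types 1.24% of all genes were called. ROBO3 (log2 difference 2.19, edgeR adjusted p = 0.030) and KCNE3 (3.89, 0.025) were the partners called, and the other 6 lists had none. As for KDR, neither call held when a primary library was left out.

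Most ligand transcripts were highest outside the endothelium. VEGFA, the main ligand of FLT1 and KDR, was at 130 and 141 CPM in ductal-like and 83.4 and 98.5 CPM in endocrine-like cells, against 11.6 and 3.19 CPM in the BTNL9/DYSF type. It was the 1 of 2 VEGF ligands tested that was lower in endothelial cells, by −2.40 on the log2 scale (edgeR adjusted p = 0.000327). PGF, which binds FLT1 and not KDR, was at 121 and 110 CPM in mural-like cells and differed by −2.11 (adjusted p = 0.114 in edgeR). VEGFD was at 31.7 CPM in fibroblast-like cells of primary pancreas 1.

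Angiopoietins marked mural-like cells. ANGPT1, which activates TEK, was at 790 and 709 CPM there, ANGPT2 at 157 and 282 CPM and ANGPT4 at 151 and 205 CPM. ANGPT1 was nevertheless 2.40 higher in endothelial cells on the log2 scale, because the contrast averages over classes and most of the others were near 0. ANGPT2, which is stored and released by endothelium, was at 48.1 and 37.3 CPM in the BTNL9/DYSF type and was higher by 2.58, while ANGPT4 at 0.55 did not pass the test. SLIT2 was at 513 and 476 CPM and SLIT3 at 1221 and 1594 CPM in mural-like cells, and ductal-like cells held SLIT2 at 136 and 149 CPM and SLIT3 at 509 and 214 CPM. SLIT1 differed by −0.27 and did not pass the test.

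**Figure D5:**
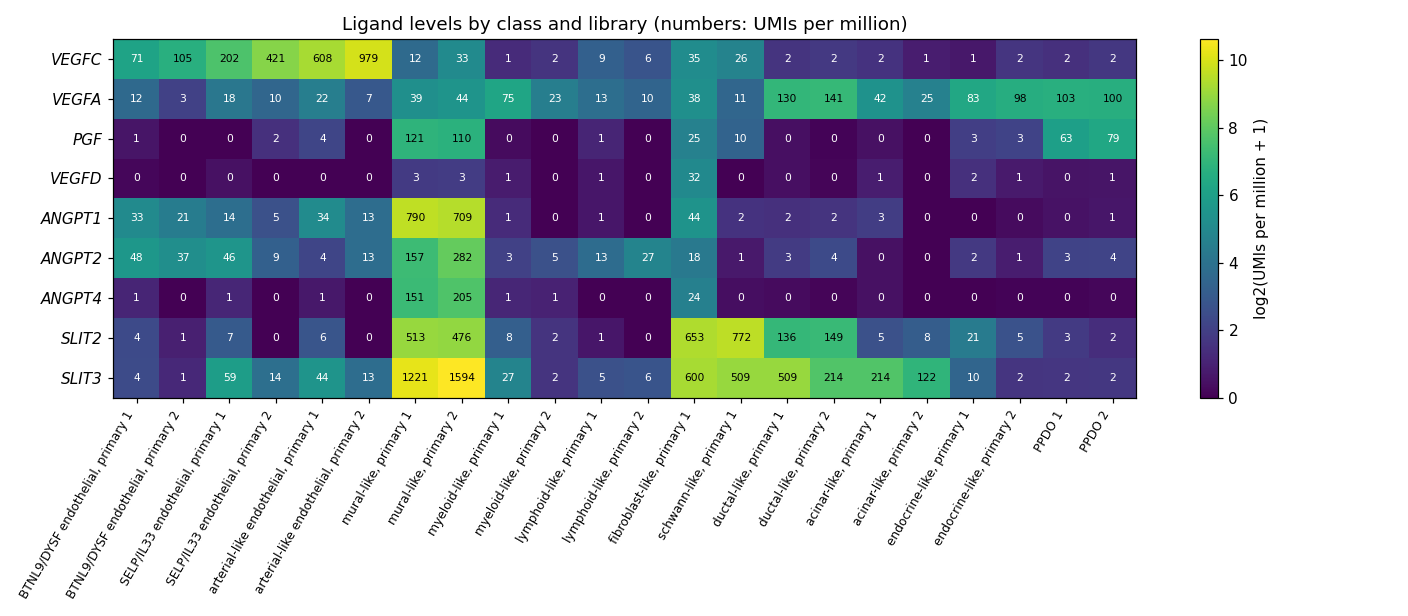
Heat map of VEGF, angiopoietin and SLIT ligand genes (lines) by cell class and library with at least 10 cells (columns), coloured by log2(CPM + 1) with the CPM written in each cell. VEGFA is highest in ductal-like cells at 130 and 141 CPM, the angiopoietins and SLIT3 are highest in mural-like cells, and VEGFC is highest in arterial-like cells.

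Among the ligands, PGF rose and SLIT2, SLIT3 and ANGPT1 fell in PPDO against ductal-like cells. VEGFA was at 103 and 99.6 CPM, a log2 difference of 0.05 that did not pass the test, and PGF was the 1 of 3 VEGF ligands called. PGF was at 62.6 and 79.4 CPM against 0.368 and 0.0789 CPM in ductal-like cells, a rise of 8.57 with an edgeR adjusted p of 0.0014. SLIT3 fell by 6.94 and SLIT2 fell by 5.64, whereas ROBO1 rose by 5.49 and ROBO2 by 5.02. The co-receptor NRP1 fell by 3.01 and NRP2 fell by 1.10, so 2 of 3 VEGF receptors and co-receptors were lower in PPDO. Of the ESAM partners MAGI1 fell by 2.46 and AFDN fell by 1.50, and the other 4 did not pass the test.

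Of all genes tested in this contrast 22.8% were called higher and 20.9% lower in PPDO, so small counts of called genes in a list set no list apart. Among 12 endothelial transcription factors 4 were higher and 3 lower in PPDO, with SOX7 higher by 7.47 and TAL1 lower by −4.43. Tip cell and VEGF response genes were higher in 1 of 7 and lower in 3 of 7, led by KCNE3 at −9.58 and ESM1 at −7.66. Signal relay genes were higher in 2 of 4, SH2D2A by 2.96 and NOS3 by 2.31, and ANGPT1, at −1.51, was the 1 of 5 angiopoietin and TIE genes that was lower. KCNE3, a potassium channel subunit, was at 493 and 613 CPM in ductal-like cells, so its lower level in PPDO concerned a gene of the duct itself.

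The genes whose levels most resembled the mean of the 6 over 22 class sums of the primary libraries were DIPK2B (Pearson r = 0.976), SHE (0.971), EMCN (0.970), SLCO2A1 (0.965), HOXB7 (0.965), MYCT1 (0.959), TMEM88 (0.955), CD93 (0.954), VWF (0.954) and AQP1 (0.953), out of 9210 ranked. Over the 19 sums of at least 20 cells 7 of these 10 stayed among the 10 nearest, CD93, VWF and AQP1 being the others. EMCN and VWF were among the markers that named the endothelium, and the sums share libraries, so these values are descriptions. FLT1 at 0.968 and ROBO4 at 0.970 lay closest to the mean of the 6 and VEGFC at 0.715 lay farthest from it.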

How the data were processed

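Single-cell RNA-seq of 4 libraries was analysed from the deposited counts, raw UMI counts per gene and cell that the authors made with Cell Ranger against Sscrofa11.1 and an in-house annotation, per the labels and the study's methods. No ambient RNA correction is contained in them, and deposited barcode and gene name columns (other) only label them. Library totals were 87043513 and 138928395 UMIs for primary pancreas and 366263520 and 316018482 for PPDO, so levels of a few UMIs are imprecise. The 6 genes and their partner lists were chosen with earlier results of these data known, and named genes were those of the lists that passed the test with at least 20 CPM in a class, plus all ligands.

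Cells were filtered by detected features and mitochondrial share after the study's methods (at most 9000 features, 8% mitochondrial UMIs in primary and 3% in PPDO cells). As a departure, both PPDO libraries had a lower limit of 1000 features, where the study used 600 for 1 line, and 600 was an alternative. Scrublet removed 89 and 154 doublets from the primary libraries, which were normalised, reduced to 20 components and clustered by Leiden at resolution 0.5 (scanpy 1.11.5, leidenalg 0.10.2, Python 3.11.15). The 6 genes and the lists stayed out of clustering and naming, a class needing at least 3 detected markers. PPDO were taken whole. UMIs were summed per library and class, and tested with edgeR 4.0.16 (R 4.3.3) quasi-likelihood fits with Benjamini-Hochberg adjustment over all genes at 0.05. Replicate libraries also differ in animal and preparation, or in line and passage, so p-values of PPDO against ductal-like cells measure the spread between these libraries. In the fits over primary classes the spread comes from class sums taken as independent. Class sums of 1 animal deviated together (28 of 28 pairs above 0.1, lowest 0.116), so the library block pairs them. Alternatives included DESeq2 1.42.0, other filters and clusterings, body features only and left-out libraries. Ratios from pooled UMIs carry counting intervals only.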

Additional observations from a re-analysis of the deposited data

Results flagged for a closer look

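Primary cluster 21, 124 cells of primary pancreas 1 with a median of 1297 UMIs, was left without a name because of its low depth and entered no comparison. The 6 genes summed to 1264 CPM there, a signal outside the cells compared and above the limit of 15.9 CPM that 3 UMIs set in this cluster. FLT1 had 62 UMIs (329 CPM), TEK 57 (303 CPM), ESAM 53 (282 CPM), KDR 34 (181 CPM), ROBO4 17 (90.3 CPM) and VEGFC 15 (79.7 CPM). The 14 endothelial markers summed to 13383 CPM, and the leading genes included CXCL9, CXCL10, FABP4 and GPIHBP1.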

How the results depend on the processing

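All 6 genes kept their direction in the endothelial comparison in each of 12 alternatives, and 71 of 72 values kept their side of the threshold, the exception being ROBO4 with 2 sums a library (edgeR adjusted p = 0.0529), where 5 of the 6 genes were called. Sizes moved more: log2 differences ran from 4.04 to 7.22 for VEGFC, 5.16 to 9.52 for KDR, 6.34 to 7.91 for FLT1, 6.32 to 9.66 for TEK, 6.68 to 11.05 for ROBO4 and 5.34 to 11.18 for ESAM. The number of genes called there was 2708 with sums thinned to the smallest and 1390 with 2 sums a library, against 4907. Between the BTNL9/DYSF and SELP/IL33 types the 191 calls became 327 in DESeq2, 531 with no filter on low counts and 447 with the replicate block, which pairs the classes of 1 animal, and 0 in each fit that left out a library. The number of the 6 genes called was 3 with no filter, 2 with the block, 0 at Leiden resolution 1.0 and 0 without either library. VEGFC also passed with no filter (0.0420) and with clustering on all variable genes (0.0285), both edgeR adjusted p-values. Leaving out a primary library used the PPDO sums for the spread, so the lone class sums are assumed to vary like them.

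Between PPDO and ductal-like cells the count of calls ran from 4647 to 10755, and that of the 6 genes from 2 to 4, when 1 library was left out. FLT1 ran from −0.23, a reversal, to 1.84, and was also called higher at Leiden resolution 1.0 (edgeR adjusted p = 0.0209). VEGFC ran from 0.15 to 1.41 on the log2 scale over all 14 alternatives of this comparison and was called in none. The replicate numbers of PPDO and primary libraries are only shared numbers (correlation −0.0128), and that block gave 8191 calls with 4 of the 6 genes. Counting body features only, chosen after seeing the data like the fit without primary cluster 8, called 6, 1 and 3 of the 6 genes in the 3 comparisons, and ROBO4 was then too low to be tested in PPDO, as it was with thinned sums, at resolution 1.0, without cluster 8 and without primary pancreas 1.

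Shares moved with the thinning depth. Over all endothelial cells they were 66.9%, 91.3% and 96.7% for FLT1 at 1000 UMIs, 4000 UMIs and full depth, 25.8%, 57.7% and 76.2% for KDR, 57.8%, 91.4% and 96.4% for TEK, 18.9%, 55.8% and 78.1% for ROBO4, 13.1%, 28.4% and 38.1% for VEGFC and 23.3%, 61.6% and 85.1% for ESAM. With 2 libraries a group an exact permutation test of a single value cannot pass 0.05, and the counts of ROBO4 in ductal-like cells and PPDO are too few to size its difference.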
